A study of Arabidopsis thaliana with 16 samples.

Results

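The genes described here are the longest of Arabidopsis thaliana: 289 of the 32548 genes in the deposited tables, chosen because end minus start was at least 8000 bp. They were set against the 16394 genes of 1000 to 3000 bp (1 to 3 kb). The mark measured was lysine 2-hydroxyisobutyrylation (Khib), by ChIP-seq with an anti-Khib antibody on whole 12-day-old untreated seedlings. All were grown at 22 °C with 16 h light and 8 h dark. Per the labels, the genotypes were sant-null (quadruple mutants), hda6 (an EMS line), hda9 (a T-DNA insertion line) and wild-type Col-0, with 2 ChIP and 2 input libraries each. The labels name no allele, and each of hda6 and hda9 is a single line. Seedlings mix all cell types, so a lower value could be fewer cells with the mark or less of it per cell, and these cannot be told apart. The tables hold 1 value per genotype, as RPKM (reads per kilobase of gene, scaled to library totals). The totals recovered from these values were 12.0 to 38.8 M reads. With 1 value per genotype, no difference below could be set against the spread between replicates, and no test was made between genotypes.

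Khib is an acyl group on lysines. On histones it is known chiefly from transcribed genes, where it is often found near the start of the gene body. HDA6 and HDA9 are histone deacetylases, a class of enzymes that remove acyl groups from histone lysines, and SANT domains are found in many proteins that bind histones or histone-modifying enzymes. Very long plant genes mostly encode giant proteins with many exons, such as kinases of the DNA damage response, callose synthases, myosins and chromatin remodelling ATPases.

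The 289 long genes had a median length of 9528 bp and ran from 8012 bp to 27265 bp. The longest was ATM, the kinase that responds to DNA double-strand breaks, at chr3:17801289-17828553 (TAIR10, from the deposited gene tables, as are the gene positions below). It was followed by AT1G48090 with 26499 bp and by AT1G67120 (MIDASIN 1, a large ATPase of ribosome assembly) with 26211 bp. Chromosomes 1 to 5 held 80, 43, 62, 38 and 66 of the long genes. Nearly all were protein-coding: 287 of 289, or 99.3%, against 97.9% of genes of 1 to 3 kb. The exceptions were AT5G45472, a long non-coding RNA, and AT2G31902, an antisense RNA that lies wholly within other listed genes, the myosin gene XIF among them. More long genes carried a symbol in the reference table, 60.9% against 37.3% of genes of 1 to 3 kb. Symbols of the embryo-defective (EMB) series were given to 11 long genes, 3.81%, and to 0.457% of genes of 1 to 3 kb. Another listed gene overlapped 104 of the long genes, and 7 were overlapped over more than 50% of their length. Reads in the overlapping parts cannot be assigned to either partner.

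The long genes just inside the limit were AT4G19520 with 8012 bp, AT3G01310 with 8016 bp and AT4G14970 with 8022 bp. AT4G19520 had 12.9 RPKM in sant-null, 8.73 RPKM in hda6 and 10.2 RPKM in hda9, against 7.88 RPKM in Col-0. AT3G01310 had 5.96 (sant-null), 5.16 (hda6) and 8.36 RPKM (hda9), against 3.76 RPKM in Col-0. AT4G14970 had 3.50 (sant-null), 3.91 (hda6) and 6.13 RPKM (hda9), against 4.46 RPKM in Col-0. Just outside it lay ABCC13 with 7991 bp, FU with 7990 bp and AT3G57570 with 7984 bp. ABCC13 had 5.50 RPKM in sant-null, 3.44 RPKM in hda6 and 7.44 RPKM in hda9, against 4.08 RPKM in Col-0. FU had 7.71 (sant-null), 6.22 (hda6) and 8.80 RPKM (hda9), against 5.82 RPKM in Col-0. AT3G57570 had 3.58 (sant-null), 2.77 (hda6) and 5.57 RPKM (hda9), against 2.66 RPKM in Col-0. The levels of the 3 genes inside the limit overlapped those of the 3 outside it in each genotype.

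By median, long genes carried less Khib per kilobase than genes of 1 to 3 kb in all 4 genotypes, and their levels were much more alike. Their median was 6.03 RPKM in sant-null, where genes of 1 to 3 kb had 8.43 RPKM, a ratio of 0.715. In hda6 the long genes had a median of 5.23 RPKM against 7.90 RPKM, a ratio of 0.662. In hda9 the medians lay closest, 7.89 RPKM against 9.09 RPKM, a ratio of 0.869. In Col-0 they were 4.44 RPKM against 6.22 RPKM, a ratio of 0.714. Long genes above the median of the shorter class made up 23.5% in sant-null, 21.5% in hda6, 32.2% in hda9 and 24.6% in Col-0. The tails were narrow on both sides. The 5th percentile of long genes lay above that of genes of 1 to 3 kb in each genotype, in Col-0 at 2.34 against 1.52 RPKM. The 95th percentile of the long genes was 3.84 times their 5th percentile in sant-null, against 12.5 times among genes of 1 to 3 kb. The same spread was 4.86 times against 19.4 times in hda6, 2.24 times against 4.58 times in hda9 and 4.43 times against 16.0 times in Col-0. RPKM of a long gene averages over more sequence and more reads. By reads recovered from the RPKM values, a long gene held a median of 741 reads in sant-null, 899 in hda6, 3158 in hda9 and 829 in Col-0. A gene of 1 to 3 kb held a median of 193 (sant-null), 257 (hda6), 662 (hda9) and 225 reads (Col-0). The part that read number plays in the narrow spread was not tested.

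**Figure D1:**
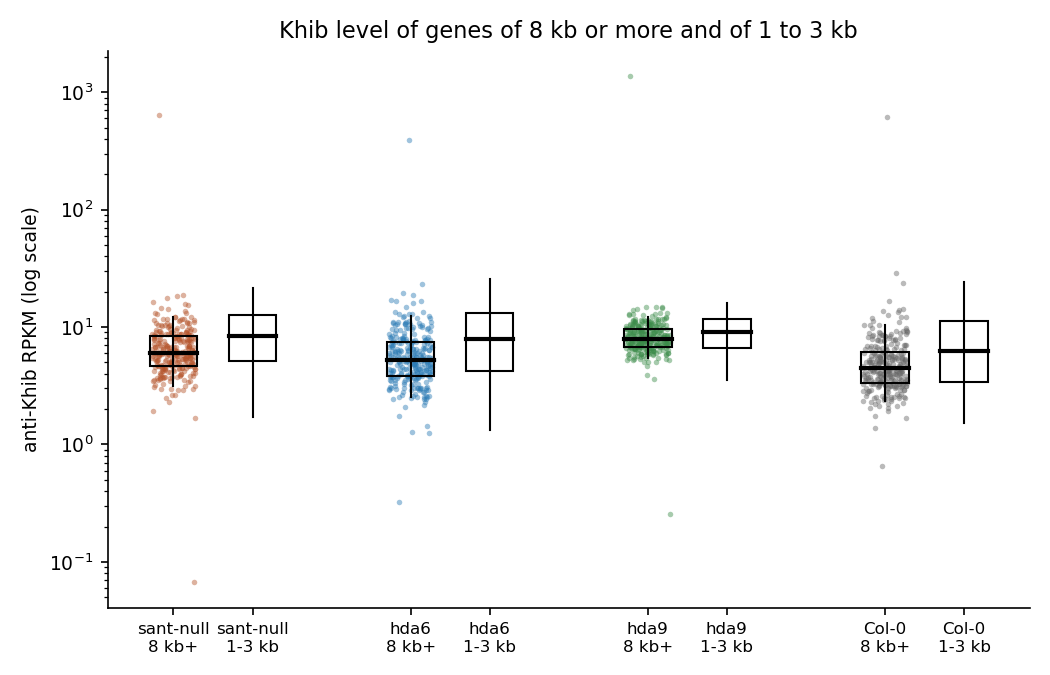
Khib level (RPKM, log axis) of each of the 289 long genes (points) in 4 genotypes, with the median (thick line), quartiles (box) and 5th to 95th percentile (thin line) of long genes on the left of each pair and of genes of 1 to 3 kb on the right. In each genotype the median of long genes is lower and their levels lie closer together, with a higher 5th percentile. AT2G08986 (highest) and AT1G39070 (lowest) stand far from the rest.

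Both features also varied with length below 8000 bp. The Col-0 median was 4.41 RPKM for the 5282 genes under 500 bp, about that of the long genes, 6.80 RPKM for genes of 500 to 1000 bp, 5.11 RPKM at 3000 to 5000 bp and 4.59 RPKM at 5000 to 8000 bp. Above the limit it was 4.77 RPKM at 8000 to 10000 bp (167 genes), 4.16 RPKM at 10000 to 12000 bp (62 genes), 3.72 RPKM at 12000 to 15000 bp (38 genes) and 5.04 RPKM from 15000 bp (22 genes). The Col-0 median thus fell with length between 500 and 8000 bp and had no single direction above that, and among long genes alone length and level were only weakly related. Spearman's rho across the 289 genes was -0.14 in sant-null, -0.18 in hda6, -0.081 in hda9 and -0.17 in Col-0, a description across genes of the same libraries. In hda9 the medians of the bins above 8000 bp stayed between 7.57 and 8.18 RPKM.

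**Figure D2:**
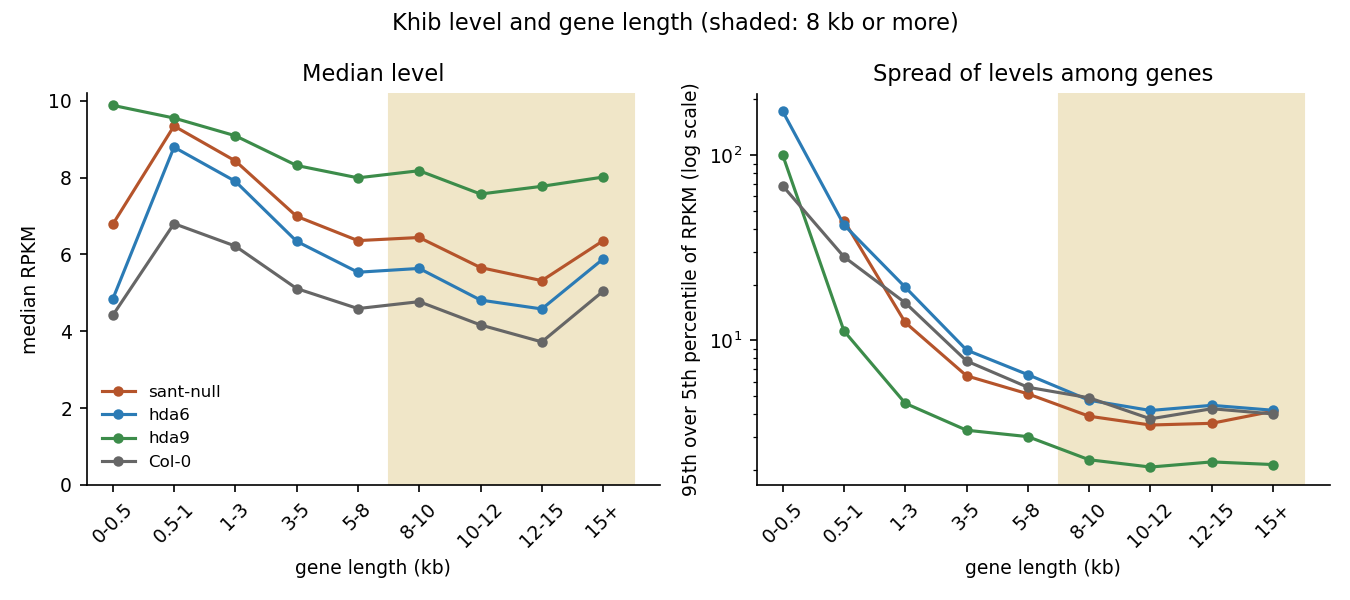
Median RPKM (left) and the 95th over the 5th percentile of RPKM (right, log axis) against gene length in kb, for 4 genotypes (colours), with the bins of 8 kb or more shaded. In Col-0 the median is 6.22 RPKM at 1 to 3 kb and 4.77 RPKM at 8 to 10 kb, and the spread is narrower at 10 to 12 kb than in each shorter bin in all 4 genotypes, with no further narrowing above 12 kb.

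The order of the long genes by level was similar in all genotypes. Across the 289 genes, Spearman's rho was 0.97 between hda6 and Col-0, 0.92 between sant-null and Col-0 and 0.82 between hda9 and Col-0. The same values for genes of 1 to 3 kb were 0.97, 0.92 and 0.81. These are descriptions across genes, without a test.

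A single long gene stood above all others. AT2G08986, at chr2:3618058-3626460, had 636 RPKM in sant-null, 389 RPKM in hda6 and 1372 RPKM in hda9, against 614 RPKM in Col-0. It ranked 16 (sant-null), 23 (hda6), 12 (hda9) and 17 (Col-0) among all 32548 genes. It took 20.9% (sant-null), 15.2% (hda6), 31.4% (hda9) and 24.8% (Col-0) of all reads in long genes. Its fold over Col-0 was 2.23 in hda9 (95% interval 2.22 to 2.25, which covers counting error only), 1.04 in sant-null (1.03 to 1.05) and 0.633 in hda6 (0.626 to 0.640). The neighbouring AT2G07981, of 2731 bp, was also highest in hda9 and lowest in hda6, with 263 RPKM in sant-null, 169 RPKM in hda6 and 610 RPKM in hda9, against 266 RPKM in Col-0. The genes on the far sides of the pair were much lower. AT2G07810 had 28.4 (sant-null), 22.1 (hda6) and 17.1 RPKM (hda9), against 29.9 RPKM in Col-0, and AT2G09388 had 21.8 (sant-null), 18.7 (hda6) and 16.6 RPKM (hda9), against 16.8 RPKM in Col-0. The labels do not say how reads that map to several places were treated.

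AT1G39070, at chr1:14733525-14745983, was the lowest long gene and the single member below the filter of at least 1 RPKM in at least 2 genotypes. It had 0.0669 RPKM in sant-null, 0.326 RPKM in hda6 and 0.257 RPKM in hda9, against 0.656 RPKM in Col-0. These values stand for 10 (sant-null), 68 (hda6), 124 (hda9) and 152 reads (Col-0), and the fold in sant-null was 0.102 (0.0479 to 0.193). The neighbouring gene AT1G39060 was also near 0, with 0.160 (sant-null), 0.0572 (hda6) and 0.247 RPKM (hda9), against 0.335 RPKM in Col-0.

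After AT2G08986, the highest levels belonged to AT5G39770, AT4G22410, CSI1, GLT1, AT3G50370, KAK and emb1507. CSI1 couples cellulose synthase to microtubules and had 17.8 RPKM in sant-null, 19.4 RPKM in hda6 and 15.0 RPKM in hda9, against 16.6 RPKM in Col-0. GLT1, the NADH-dependent glutamate synthase of nitrogen assimilation, had 18.5 (sant-null), 17.1 (hda6) and 14.7 RPKM (hda9), against 14.2 RPKM in Col-0. Both were at more than 2 times the median of long genes in sant-null, hda6 and Col-0, and below 2 times in hda9, where all levels were closer together. The lowest levels after AT1G39070 belonged to GSL09, NRPC2, AT5G40450, XPO1B, AT1G58060, AT1G77600 and ATM. GSL09, of the callose synthase family, had 1.93 RPKM in sant-null, 1.27 RPKM in hda6 and 3.60 RPKM in hda9, against 1.37 RPKM in Col-0. NRPC2, a core subunit of RNA polymerase III, had 1.69 (sant-null), 1.43 (hda6) and 3.94 RPKM (hda9), against 1.94 RPKM in Col-0. ATM had 2.66 (sant-null), 2.55 (hda6) and 5.03 RPKM (hda9), against 2.32 RPKM in Col-0. In all 7 of these low genes the hda9 value was the highest of the 4, which held for 253 long genes (87.8%) and for 52.4% of all genes past the filter.

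Ratios to Col-0 were taken as log2 of (RPKM + 1) over (RPKM + 1), a scale that understates the change of low genes. The median over all 31805 genes past the filter was itself above 0, at 0.28 for sant-null, 0.20 for hda6 and 0.48 for hda9. Long genes stood above that shift in hda9, slightly above it in sant-null and level with it in hda6. Their median log2 ratio in hda9 was 0.71 (288 genes), against 0.43 in genes of 1 to 3 kb. In sant-null it was 0.36, against 0.28 in genes of 1 to 3 kb. In hda6 it was 0.20, against 0.21 in genes of 1 to 3 kb. Relative to the median of all genes, the long genes were at 0.083 for sant-null, -0.0028 for hda6 and 0.22 for hda9. The ratios were also less spread among long genes. In hda9 the middle 50% of long genes lay between 0.49 and 0.91, against -0.10 to 0.84 in genes of 1 to 3 kb. With length, the hda9 median was 0.56 at 3000 to 5000 bp, 0.66 at 5000 to 8000 bp, 0.64 at 8000 to 10000 bp, 0.76 at 10000 to 12000 bp, 0.85 at 12000 to 15000 bp and 0.78 from 15000 bp.

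At a limit of 1.5-fold on this scale, 186 of 288 long genes were higher in hda9 than in Col-0 (64.6%), where the share over all genes was 43.7% and that of genes of 1 to 3 kb was 40.5%. Long genes lower in hda9 numbered 2 (0.694%), against 9.08% of all genes and 9.17% of genes of 1 to 3 kb. In sant-null, 32 long genes were higher (11.1%), against 23.7% of all genes and 23.0% of genes of 1 to 3 kb. A single long gene was lower in sant-null, where the share was 6.01% of all genes and 2.88% of genes of 1 to 3 kb. In hda6 no long gene was higher, against 9.08% of all genes and 7.33% of genes of 1 to 3 kb. In hda6 1 long gene was lower, against 3.05% of all genes and 0.827% of genes of 1 to 3 kb. No test was run, as there was 1 value per genotype. After the median of all genes was set to 0, the counts were 27 higher and 8 lower in hda9 (all genes 15.4% and 22.3%), 0 and 3 in sant-null (8.25% and 13.6%) and 0 and 1 in hda6 (3.02% and 6.12%). The hda9 count thus depends on how the libraries are scaled against each other.

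These differences changed when genes of like level were compared. Ratios depend on the Col-0 level, and the Col-0 value enters both axes of such a comparison. Among genes of 4 to 5 RPKM in Col-0, the median hda9 ratio was 0.71 in 55 long genes, against 0.73 in 1577 genes of 1 to 3 kb. At 2 to 3 RPKM it was 1.01 in 39 long genes, against 1.03 in shorter genes. At 8 to 10 RPKM it was 0.32 in 24 long genes, against 0.18 in shorter genes. For sant-null the order turned round: at 4 to 5 RPKM the long genes had a median of 0.37, against 0.52 in genes of 1 to 3 kb, and at 3 to 4 RPKM 0.40, against 0.54. For hda6 the medians at 4 to 5 RPKM were 0.21 in long genes, against 0.33 in genes of 1 to 3 kb. Over the middle 50% of Col-0 levels of the long genes (3.37 to 6.16 RPKM), the median of long genes minus that of genes of 1 to 3 kb was -0.12 for sant-null, -0.11 for hda6 and 0.014 for hda9.

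**Figure D3:**
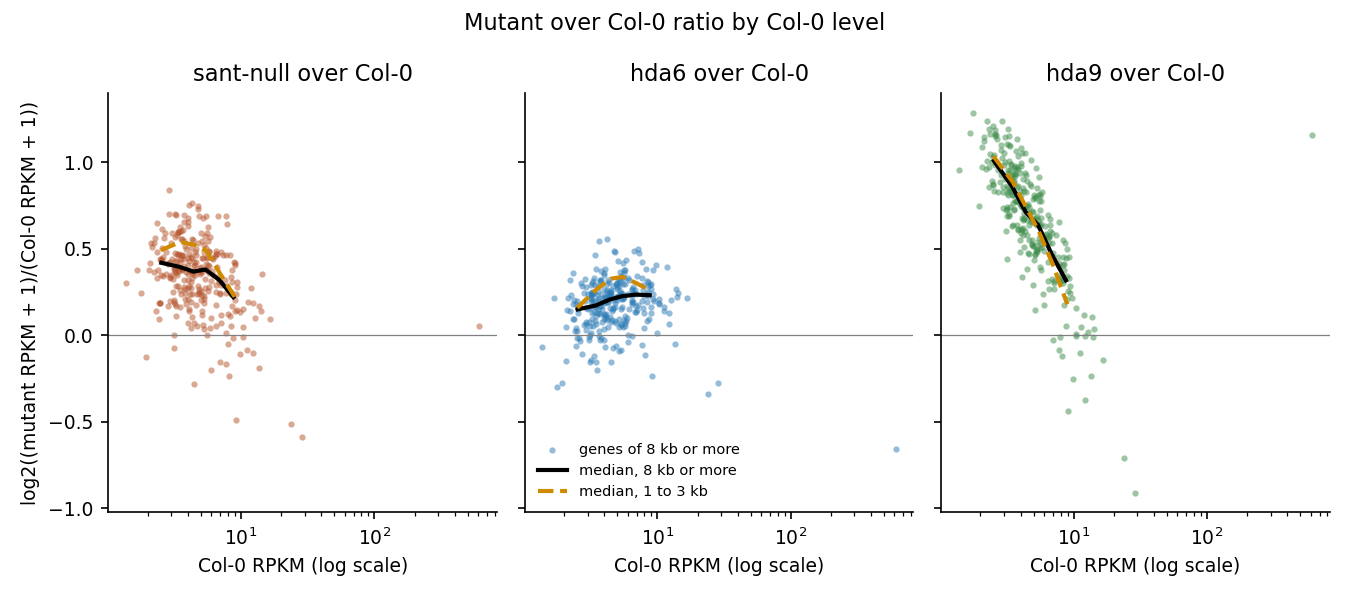
Log2 ratio of mutant to Col-0 (RPKM + 1) against the Col-0 RPKM (log axis) of 288 long genes (points) in sant-null, hda6 and hda9, with medians by level of long genes (solid) and genes of 1 to 3 kb (dashed). In hda9 the lines nearly coincide at 2 to 8 RPKM. In sant-null and hda6 the long genes lie below the shorter ones over most levels.

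The highest ratios in sant-null were those of AT3G50380, PIE1, AT2G48060, RST1, HAF2, UPL6, PRT6 and AT1G22060. AT3G50380 had 5.98 RPKM in sant-null, 3.34 RPKM in hda6 and 8.20 RPKM in hda9, against 2.89 RPKM in Col-0. Its fold was 2.07 in sant-null (1.88 to 2.27) and 2.83 in hda9 (2.63 to 3.06), against 1.16 in hda6 (1.05 to 1.28). PIE1, the ATPase of the SWR1 complex that places the histone variant H2A.Z, had 8.03 (sant-null), 5.21 (hda6) and 10.04 RPKM (hda9), against 4.32 RPKM in Col-0. Its fold in sant-null was 1.86 (1.68 to 2.05). PRT6, a ubiquitin ligase of the N-degron pathway, had 5.83 (sant-null), 3.97 (hda6) and 8.58 RPKM (hda9), against 3.20 RPKM in Col-0. RST1 had 8.68 (sant-null), 7.09 (hda6) and 9.49 RPKM (hda9), against 4.77 RPKM in Col-0. It was among the 8 highest long genes in hda6 as well, with a fold of 1.49 (1.35 to 1.64).

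The highest ratio in hda9 was that of AT5G40450, which had 2.28 RPKM in sant-null, 1.25 RPKM in hda6 and 5.75 RPKM in hda9, against 1.77 RPKM in Col-0. The folds pointed in different directions, 3.26 in hda9 (2.92 to 3.65) and 0.707 in hda6 (0.598 to 0.835). DCL2, which makes small interfering RNAs against viruses, had 3.71 (sant-null), 2.55 (hda6) and 7.07 RPKM (hda9), against 2.49 RPKM in Col-0. XPO1B, a nuclear exportin, had 2.47 (sant-null), 2.10 (hda6) and 5.02 RPKM (hda9), against 1.67 RPKM in Col-0, and its hda9 fold was 3.002 (2.63 to 3.43). Each of these genes had a Col-0 level below the median of long genes. In hda6 the highest log2 ratio was 0.56, that of AT2G33435, with 6.09 (sant-null), 6.64 (hda6) and 8.37 RPKM (hda9), against 4.19 RPKM in Col-0.

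Of 288 long genes, the log2 ratio was at or below 0 in 17 for sant-null, in 35 for hda6 and in 15 for hda9. It was above 0 in 94.1% (sant-null), 87.8% (hda6) and 94.8% (hda9) of long genes, where all genes had 71.3% (sant-null), 74.1% (hda6) and 73.7% (hda9). The gene called lower in hda6 was AT2G08986, described above. AT5G39770, at chr5:15919241-15927549, had 18.7 RPKM in sant-null, 23.4 RPKM in hda6 and 14.7 RPKM in hda9, against 28.6 RPKM in Col-0. It was the single long gene at least 1.5-fold lower in sant-null, with a fold of 0.654 (0.619 to 0.690), and its fold in hda9 was 0.515 (0.494 to 0.536). AT4G22410, at chr4:11818033-11826143, was the other long gene called lower in hda9. It had 16.4 (sant-null), 18.7 (hda6) and 14.2 RPKM (hda9), against 23.8 RPKM in Col-0, and an hda9 fold of 0.596 (0.571 to 0.623). AT2G34100 had 6.20 (sant-null), 7.59 (hda6) and 6.45 RPKM (hda9), against 9.10 RPKM in Col-0, and 32.2% of its length is overlapped by other genes. AT5G39770 and AT4G22410 were the long genes with the highest Col-0 levels after AT2G08986. FCA, an RNA-binding regulator of flowering time, had 6.76 (sant-null), 8.99 (hda6) and 7.21 RPKM (hda9), against 7.71 RPKM in Col-0, below Col-0 in sant-null and hda9 and above it in hda6.

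By function, 82 long genes fell into 12 groups listed from general knowledge and chosen with earlier results known. Their counts are read against the 64.6% of long genes and 43.7% of all genes that were higher in hda9, and the 11.1% and 23.7% that were higher in sant-null. With the median of all genes set to 0, no gene of these groups was higher in sant-null, and each group had at most 1 gene higher in hda9. Among 12 genes of chromatin remodelling and histone modification, 4 were at least 1.5-fold higher in sant-null and 9 in hda9, with none lower. Their median log2 ratios were 0.46 for sant-null, 0.22 for hda6 and 0.81 for hda9, where all long genes had 0.36 (sant-null), 0.20 (hda6) and 0.71 (hda9). The 4 were PIE1, HAF2, the remodelling ATPase INO80 and the H3K4 methyltransferase SDG2. INO80 had 5.88 RPKM in sant-null, 4.24 RPKM in hda6 and 8.45 RPKM in hda9, against 3.25 RPKM in Col-0. BRM, an ATPase of SWI/SNF complexes, was the most marked gene of the group and barely differed, with 13.8 (sant-null), 14.9 (hda6) and 13.0 RPKM (hda9), against 12.8 RPKM in Col-0. The CBP-type acetyltransferase HAC1 had 10.5 (sant-null), 10.6 (hda6) and 11.5 RPKM (hda9), against 7.32 RPKM in Col-0. The list left out other long genes with chromatin roles, among them CHR4, ATRX, LDL3 and MBD9. Their log2 ratios in sant-null were 0.49, 0.25, 0.52 and 0.17, each under 1.5-fold. In hda9, CHR4 (0.57) and MBD9 (0.38) were under it, and ATRX (0.78) and LDL3 (0.85) were past it. The counts of 4 and 9 thus depend on which genes were listed, and no full count was made.

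Among 6 genes of DNA methylation and small RNA pathways, 4 were higher in hda9 and 1 in sant-null. The shares of long genes were 64.6% and 11.1%, and those of all genes 43.7% and 23.7%. The sant-null gene was DME, a DNA glycosylase that removes 5-methylcytosine, with 9.50 RPKM in sant-null, 7.69 RPKM in hda6 and 11.3 RPKM in hda9, against 5.50 RPKM in Col-0. DCL1, which processes microRNA precursors, had 8.81 (sant-null), 9.54 (hda6) and 10.2 RPKM (hda9), against 8.00 RPKM in Col-0. NRPD1B (NRPE1), the largest subunit of RNA polymerase V, had 11.1 (sant-null), 8.78 (hda6) and 10.7 RPKM (hda9), against 7.76 RPKM in Col-0. Of 5 genes of DNA polymerases and repair, 3 were higher in hda9 (long genes 64.6%, all genes 43.7%) and none in the other mutants. TIL1, the catalytic subunit of DNA polymerase epsilon, had 5.09 (sant-null), 5.82 (hda6) and 6.91 RPKM (hda9), against 5.997 RPKM in Col-0. Its paralog TIL2 had 4.31 (sant-null), 3.02 (hda6) and 7.66 RPKM (hda9), against 3.36 RPKM in Col-0, so that per kilobase TIL2 stood above TIL1 in hda9 and below it in Col-0.

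The 5 genes of the PIKK family had median log2 ratios of 0.32 for sant-null, 0.16 for hda6 and 0.58 for hda9. In hda9, 2 were higher, where the share was 64.6% of long genes and 43.7% of all genes. TOR, the growth-control kinase, had 6.91 RPKM in sant-null, 6.73 RPKM in hda6 and 8.41 RPKM in hda9, against 5.62 RPKM in Col-0. ATR, the kinase of replication stress, had 9.76 (sant-null), 7.30 (hda6) and 10.8 RPKM (hda9), against 7.61 RPKM in Col-0. Its Col-0 level was more than 3 times that of ATM.

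Callose synthases and myosins had mostly low levels. All 10 callose synthase genes of 8 kb or more were at least 1.5-fold higher in hda9, as were all 14 myosin genes, against 64.6% of long genes and 43.7% of all genes. With equal medians the counts were 0 callose synthases and 1 myosin. Genes of 1 to 3 kb with 2 to 3 RPKM in Col-0 had a median log2 ratio of 1.03 in hda9, and those with 3 to 4 RPKM had 0.88. Col-0 levels ran from 1.37 to 4.78 RPKM in the callose synthases and from 2.47 to 4.26 RPKM in the myosins, where the median of all long genes was 4.44 RPKM. In hda9 they ran from 3.60 to 8.55 RPKM and from 5.37 to 8.26 RPKM. Median log2 ratios in hda9 were 0.89 for callose synthases and 0.78 for myosins. In sant-null, 1 callose synthase was higher, CalS7 of the sieve plates, with 5.67 RPKM in sant-null, 4.05 RPKM in hda6 and 7.19 RPKM in hda9, against 3.40 RPKM in Col-0. The 2 myosin genes higher in sant-null were ATM1 and XIF. ATM1, a class VIII myosin, had 5.93 (sant-null), 4.45 (hda6) and 6.58 RPKM (hda9), against 3.57 RPKM in Col-0. XIF had 5.55 (sant-null), 4.46 (hda6) and 8.26 RPKM (hda9), against 3.34 RPKM in Col-0, but 99.2% of it is overlapped by other listed genes.

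The listed ubiquitin ligases were the most marked group, with a Col-0 median of 9.11 RPKM over 6 genes. A single listed member, PRT6, was at least 1.5-fold higher in sant-null and hda9. Over all genes the shares were 23.7% and 43.7%, and over long genes 11.1% and 64.6%. The list left out UPL6, another long gene of the UPL series. UPL6 had 2.86 RPKM in Col-0 and log2 ratios of 0.70 in sant-null and 1.10 in hda9, both past 1.5-fold. BIG, a giant protein needed for auxin transport, had 11.5 RPKM in sant-null, 10.9 RPKM in hda6 and 12.8 RPKM in hda9, against 8.58 RPKM in Col-0. KAK (UPL3), a HECT-type ligase that limits trichome branching, had 15.7 (sant-null), 16.6 (hda6) and 13.97 RPKM (hda9), against 14.1 RPKM in Col-0. KEG, a ligase that restrains abscisic acid signalling, had 10.4 (sant-null), 12.4 (hda6) and 10.3 RPKM (hda9), against 11.1 RPKM in Col-0. The sant-null and hda9 folds of KEG were 0.938 (0.872 to 1.01) and 0.928 (0.878 to 0.980).

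Of 4 genes of ribosome assembly and splicing, 1 was higher in hda9, AT1G67120, with 5.89 RPKM in sant-null, 4.35 RPKM in hda6 and 8.39 RPKM in hda9, against 3.82 RPKM in Col-0. SUS2 (PRP8), a core protein of the spliceosome, had 11.8 (sant-null), 11.1 (hda6) and 12.6 RPKM (hda9), against 8.28 RPKM in Col-0. Of 4 large metabolic enzymes, 1 was higher in hda9, GLU1, the ferredoxin-dependent glutamate synthase, with 6.66 (sant-null), 5.58 (hda6) and 9.18 RPKM (hda9), against 4.48 RPKM in Col-0. Its relative GLT1 had a log2 ratio of 0.039 in hda9. Of 6 ABC transporters, 2 were higher in sant-null and 5 in hda9. For each group here, the shares higher in hda9 were 64.6% of long genes and 43.7% of all genes. In sant-null they were 11.1% and 23.7%. Of 4 genes of the mediator and transcription group 2 were higher in hda9, as were 4 of 6 genes of vesicle traffic and lipid kinases, and none was higher in sant-null. CCT, the Mediator subunit MED12, had 9.07 (sant-null), 10.005 (hda6) and 10.6 RPKM (hda9), against 8.31 RPKM in Col-0. The actin regulator SPK1 had 6.18 (sant-null), 6.003 (hda6) and 7.86 RPKM (hda9), against 5.30 RPKM in Col-0. None of the 82 genes was called lower in a mutant or higher in hda6.

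**Figure D4:**
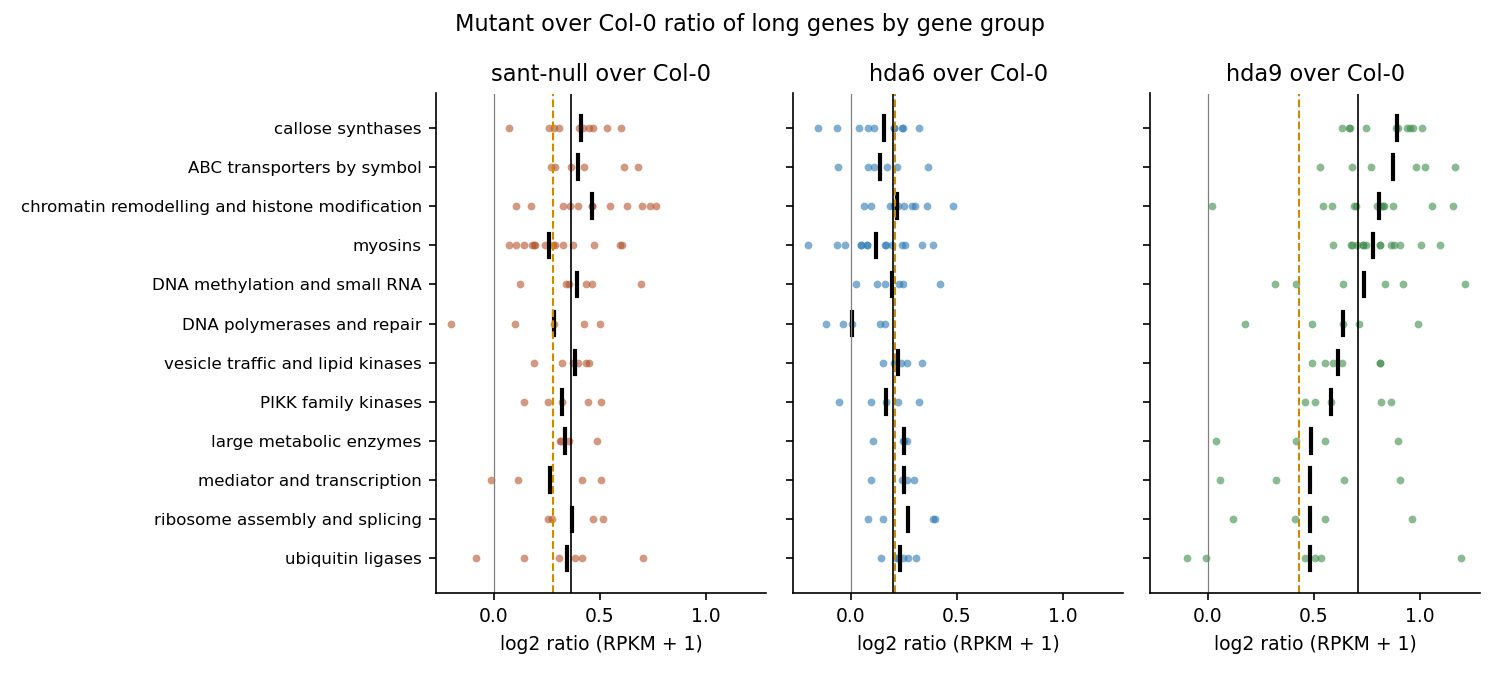
Log2 ratio of mutant to Col-0 (RPKM + 1) for the 82 long genes in 12 groups (points) in sant-null, hda6 and hda9, with the median of each group (short bar), of all long genes (solid line) and of genes of 1 to 3 kb (dashed line). Callose synthases, ABC transporters and chromatin genes have the highest medians in hda9, at 0.89, 0.87 and 0.81. The lowest medians, all 0.48, are those of ubiquitin ligases, ribosome assembly and splicing, mediator and transcription, and large metabolic enzymes.

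On chromosomes 3 and 5 the authors' islands, stretches of clustered reads called for hda6 and Col-0, were laid over 128 long genes and 7025 genes of 1 to 3 kb. At least 1 bp of an island fell in 56 long genes, 43.75%, against 35.5% of genes of 1 to 3 kb, a description without a test. Islands covered 5.01% of the bases of long genes, against 13.4% of those of genes of 1 to 3 kb. Some island positions recur on both chromosomes, 22.9% of the island bases of chromosome 3 and 22.7% of those of chromosome 5, although islands cover only 11.2% and 9.86% of these chromosomes. Why they recur was not tested, and if some islands were listed under the wrong chromosome, the cover values of both gene classes would be off. Across the 128 long genes, Spearman's rho between cover and Col-0 level was 0.70 with the islands of a gene's own chromosome and -0.057 with those of the other, a description across genes of the same libraries. The islands of the other chromosome, read at the same positions, are given as a background. They touched 67.2% of long genes and covered 9.87% of their bases, and touched 25.7% of genes of 1 to 3 kb and covered 8.63%. Long genes were thus covered less by their own islands than by those of the other chromosome, and genes of 1 to 3 kb more. The 92 islands in long genes had a median width of 600 bp. A single island was found in 35 genes, and BIG had the most, 5.

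Within long genes, cover was highest at the start. The first 500 bp were covered to 14.3%, close to the 15.6% in genes of 1 to 3 kb. The next 500 bp were covered to 8.62%, and each 500 bp window between 1500 and 4000 bp to between 1.52% and 2.52%. In genes of 1 to 3 kb that reach so far, cover was still 12.3% at 1500 to 2000 bp. Near the end of long genes it was 10.96% at 500 to 1000 bp before the end and 6.12% in the last 500 bp. The first kb and the last kb of a long gene were covered to 11.4% and 8.54% and the interior to 3.77%, where the islands of the other chromosome gave 9.25%, 10.6% and 9.87%. Outside the genes it was as high as in the first kb in places, with 11.8% at 1500 to 2000 bp before the start, 10.3% at 500 to 1000 bp before it and 11.7% at 500 to 1000 bp past the end. The interior makes up 80.1% of the bases and held 60.3% of the covered bases. Islands lay in the first kb of 28 long genes and in the interior of 41, and 18 had islands in the interior alone.

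**Figure D5:**
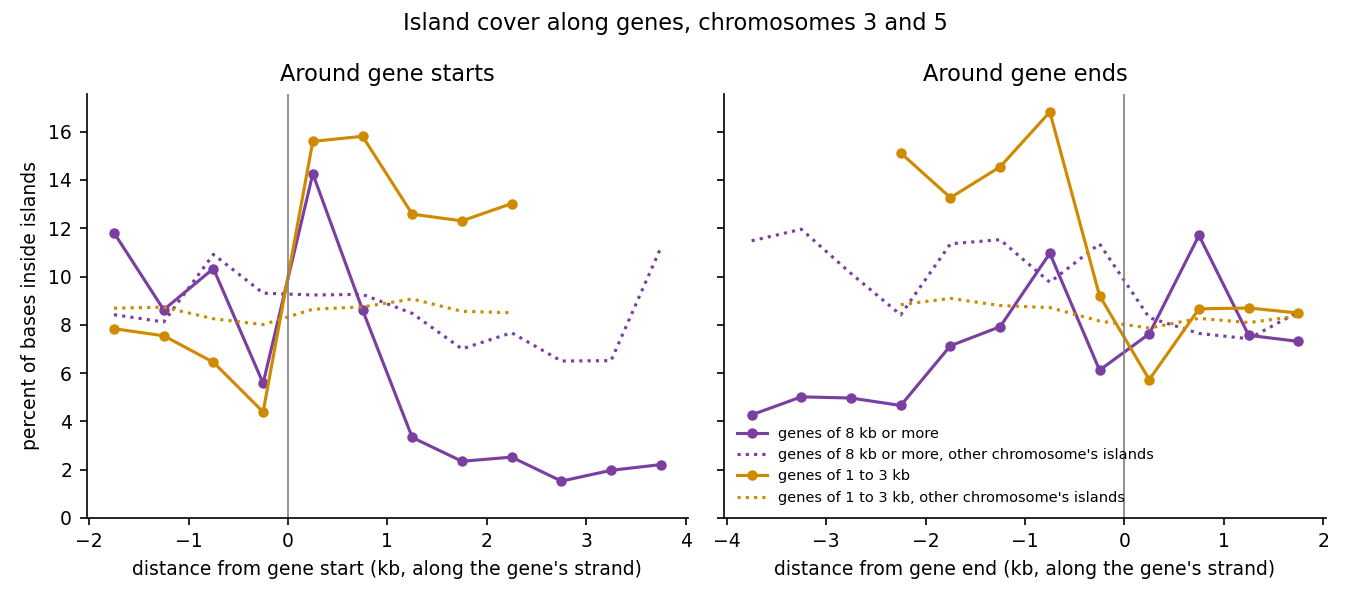
Percent of bases inside the authors' islands in 500 bp windows against the distance in kb from gene starts (left) and ends (right), for 128 long genes and up to 7025 genes of 1 to 3 kb of chromosomes 3 and 5, with the islands of the other chromosome at the same positions as dotted lines. Long genes reach 14.3% in the first 500 bp and stay under 2.6% from 1.5 to 4 kb, while genes of 1 to 3 kb stay above 12% in each window after their start (left).

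The most covered long genes were AT5G39770 with 60.2% of its bases, KEG with 31.5%, AT5G15680 with 31.4%, GLT1 with 23.7%, AT5G24710 with 23.3% and AT5G07740 with 22.8%. AT5G39770 held a single island of 5000 bp, at chr5:15922401-15927400, that began 149 bp after the gene's start. KEG held 4 islands, 2 of them wholly in the interior, the widest of 1200 bp. BIG, of 17804 bp, held 5 islands covering 16.9% of it, the first of them 80 bp after the gene's start and the last near its end. AT5G07740 had a single island of 2000 bp, 3339 bp after the start, and none in its first or last kb. No island touched 72 long genes, among them ATM, PIE1, INO80, HAF2, PRT6, DCL2 and XPO1B.

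Long genes with islands had higher gene-wide levels. The 28 with an island in the first kb had medians of 8.33 RPKM in sant-null, 7.96 RPKM in hda6 and 9.44 RPKM in hda9, against 7.08 RPKM in Col-0. The 72 without an island had 5.08 (sant-null), 4.12 (hda6) and 7.17 RPKM (hda9), against 3.42 RPKM in Col-0. Islands were called from hda6 and Col-0 reads, so for those genotypes the levels share their source with the islands. Col-0 is also the denominator of each ratio below, so the ratios are not independent of this grouping. Their ratios differed too: the median log2 ratio in hda9 was 0.43 with an island in the first kb and 0.87 without islands, and in sant-null 0.20 and 0.42. Among genes of 1 to 3 kb the same medians were -0.29 and 0.73 in hda9 and -0.051 and 0.44 in sant-null. Spearman's rho between the share covered and the level, across 128 genes, was 0.59 in sant-null, 0.69 in hda6, 0.49 in hda9 and 0.70 in Col-0. GSL09 departs from this, as the second lowest long gene with an island of 1000 bp at 4593 bp from its start.

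Of the 92 islands, 79 lay wholly inside a long gene. Their RPM per kb, from the authors' island table, was a median of 1.61 times the gene's RPKM in hda6 and 1.75 times in Col-0. The island and gene values were scaled separately and do not rest on the same read counts. The GSL09 island alone was listed with 470 Col-0 reads, where the RPKM of the whole gene stood for 410. Which ratios lie above or below 1 thus depends on the scaling, and these ratios hold only up to the difference in library totals. The ratio was above 1 for 68 of the 79 islands in hda6 and for 70 in Col-0. In GSL09 it was 8.20 in hda6 and 9.56 in Col-0, where the island had 13.1 RPM per kb and the gene 1.37 RPKM. In AT5G39770 it was below 1, with 19.4 RPM per kb in the island against 28.6 RPKM over the gene in Col-0.

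The authors' deposited tables also give a fold and an FDR for each island, from 1 read count per genotype. In the authors' deposited hda9 table, the 74 islands in long genes had a median fold of 0.634 over Col-0, and 94.6% of them were lower at an FDR under 0.05, against 96.6% of all islands of chromosomes 3 and 5. In the authors' deposited sant-null table, the 82 islands in long genes had a median fold of 0.749, and 70.7% were lower and 18.3% higher, against 74% and 9.51% of all islands. In the authors' deposited hda6 table, the 92 islands in long genes had a median fold of 1.01, and 21.7% were lower and 29.3% higher, against 37% and 22.4% of all islands. By the authors' scaling, islands in long genes of chromosomes 3 and 5 thus had median folds below 1 in hda9 and sant-null. The RPKM of most long genes of all chromosomes, taken whole, was above that of Col-0. These are unlike sets on separate scalings, so no contrast within genes can be read from them.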

How the data were processed

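Khib ChIP-seq of 12-day-old seedlings grown at 22 °C was analysed from tables the authors deposited for 4 genotypes, 1 value each, and neither the labels nor the headers say how the 2 ChIP libraries of a genotype were combined or whether input was subtracted. Per the labels, fixation was in 1% formaldehyde for 15 min. The submitters' processing notes list, without roles, Bowtie2 2.2.5, bedtools, CASAVA, SICER 1.0.3 and the genome build TAIR10.

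The authors deposited RPKM values for 32548 genes, per the file headers. RPKM times gene length gave whole reads (within 0.01) for 100% of values at totals of 12.0 (sant-null), 16.8 (hda6), 38.8 (hda9) and 18.6 (Col-0) M reads. These were the smallest totals found to do so. Reads per gene were recovered at them and are not the read counts given for islands. The authors deposited a read count per island, the same as RPM, a fold (ratio), and a p-value with FDR, per the file headers. Islands of chromosomes 3 and 5 were used.

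Log2 ratios used a pseudocount of 1 RPKM and the 31805 genes that reached 1 RPKM in 2 or more genotypes. Calls were made at 1.5-fold, with no test. The 95% intervals of folds (exact, Clopper-Pearson) use the recovered reads and cover counting error only. Among long genes past the filter the upper bound was at most 1.43 times the lower. The planned model across replicates needed a value per library. The promoter search planned for named genes was not run, as no promoter sequence was used here. Names and biotypes came from RefSeq (TAIR10.1), where 32536 genes matched. Members, gene groups and comparisons were chosen with earlier results of these data known. Genes named are the longest, those next to the length limit, the highest and lowest by level and by ratio, the most covered by islands, and in each group those with the largest ratio or a well-known role. Scripts were tested on simulated data. Python 3.11.15, pandas 2.3.3 and scipy 1.17.1 were used. No column of per-sample values was left unmapped.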

Additional observations from a re-analysis of the deposited data

How the results depend on the processing

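Of the alternatives run on these results, 52 left the value close to the one reported, 20 moved it and 3 reversed it. The limit of 0.1 for close values applied to log2 differences, and the 52 also include counts and shares. The 52 include the hda6 difference, -0.013 as reported, -0.11 at matched Col-0 levels and -0.084 at matched mean levels. The sant-null difference between long genes and genes of 1 to 3 kb (0.088) reversed to -0.052 with quantile normalization, to -0.12 at matched Col-0 levels and to -0.095 at matched mean levels (an alternative chosen after seeing the data). The hda9 difference (0.28) was 0.12 with quantile normalization, 0.38 for genes of at least 10000 bp, 0.014 at matched Col-0 levels and 0.013 at matched mean levels. The 32 genes higher in sant-null became 57 with a pseudocount of 0.1, 0 with equal medians and 0 with quantile normalization. The 1 lower became 2 without a filter and 3 under either scaling. In hda6, 2 were higher with a pseudocount of 0.1. The 186 genes higher in hda9 became 209 with a pseudocount of 0.1, a change counted among the 52. They became 27 with equal medians and 2 with quantile normalization, and the 2 lower became 8 and 9. At 10000 bp or more, the level relative to genes of 1 to 3 kb was 0.611 in hda6 and 0.658 in Col-0. Island cover (5.01%) was 3.86% with the hda9 islands and 3.88% without positions shared with the other chromosome, also chosen after seeing the data. Long genes covered to at least 10% made up 20.3%. Beyond the alternative's own construction, the cause was not tested. No paired analysis was possible because the tables hold 1 value per genotype, and no replicate could be left out. With 10 to 152 reads, AT1G39070 is the member whose level depth limits most.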
